A study of Mus musculus with 16 samples.

Results

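The 3 genes described here are Pcdh10, Camk2n1 and Sema7a, which were chosen by their odor minus vehicle differences in these same arrays: all were higher after isoamyl acetate than after filtered air. Each has 1 probe set on the array, and they are 3 of 19505 genes with a named probe set. The data are 16 Clariom S arrays of RNA from olfactory mucosa cells of S100a5-tauGFP mice on C57BL/6, a line in which S100a5, a calcium-binding protein gene induced by odor stimulation in olfactory sensory neurons, directs a GFP reporter. The 24 mice, of both sexes and aged 7 to 12 weeks, were kept 1 per chamber in clean air flowing at 3.1 L per minute for 40 hours. From 26 hours on they were given a pulse of 10 seconds every 20 minutes. The pulse was isoamyl acetate, an ester with a banana smell, in the odor group and filtered air in the vehicle group. Cells of 3 mice made a pool, and every one of the 8 pools gave 1 titled GFP+ and 1 titled GFP- library by cell sorting. The 4 groups of 4 libraries are odor titled GFP+, odor titled GFP-, vehicle titled GFP+ and vehicle titled GFP-. Values are log2 signals, so that a step of 1 stands for a 2-fold change, and folds are computed from them.

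Pcdh10 encodes a delta-type protocadherin, a membrane protein through which cells of like kind adhere, and its cytoplasmic part binds the WAVE complex that starts branched actin networks. Camk2n1 encodes a small protein that binds and inhibits CaMKII, the kinase activated by calcium and calmodulin. Sema7a encodes a semaphorin held in the membrane by a lipid anchor, with plexin C1 and beta-1 integrins as its receptors. In the mouse olfactory system, the axons of neurons that express the same odorant receptor gather in shared glomeruli, and adhesion and guidance molecules whose transcription follows neuronal activity take part in this sorting. Pcdh10 is known as one such molecule, and Sema7a on the axon terminals acts through plexin C1 on the dendrites of mitral cells in the olfactory bulb.

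The bases before the start sites of Pcdh10 and Sema7a are shown because both genes were higher with odor in both sorts. The sequences are the 250 bases before the start in RefSeq on build GRCm38.p6, both on the plus strand, at chr3:45378148-45378397 and chr9:57939862-57940111, and 2 of the 3 genes matched an entry. Capitals mark the letters TGACG, the core of the cyclic AMP response element (CRE) bound by CREB, searched on both strands.
Pcdh10: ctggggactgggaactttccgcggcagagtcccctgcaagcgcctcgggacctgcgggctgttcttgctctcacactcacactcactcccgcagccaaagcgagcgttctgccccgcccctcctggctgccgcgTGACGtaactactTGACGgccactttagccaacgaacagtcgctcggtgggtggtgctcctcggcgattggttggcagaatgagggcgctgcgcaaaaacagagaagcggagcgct
Sema7a: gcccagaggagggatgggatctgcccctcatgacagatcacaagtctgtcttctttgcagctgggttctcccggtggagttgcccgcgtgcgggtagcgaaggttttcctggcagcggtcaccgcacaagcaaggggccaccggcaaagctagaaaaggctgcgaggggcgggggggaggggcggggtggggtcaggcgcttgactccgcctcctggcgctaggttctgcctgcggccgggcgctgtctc
The Pcdh10 window holds TGACG at 2 places, starting at -116 and -103 from the start site, and the Sema7a window holds none. Of 32841 windows of this length in the RefSeq set, 17.8% hold these 5 letters on either strand. The full element TGACGTCA, which contains them, is in neither window and in 1.55% of all. Neither window holds the AP-1 site TGANTCA (6.75% of all windows), the EGR site GCGNGGGCG (4.7%), the EBF site CCCNNGGG (11.8%) or the TATA box TATAAA (12.4%). The GC box GGGCGG, which can overlap the EGR site, occurs 1 time before Pcdh10 and 2 times before Sema7a (32.7% of all windows), and CCAAT occurs 1 time before Pcdh10 (33.9%). Both windows are rich in G and C, at 63.2% for Pcdh10 and 66.4% for Sema7a, against a median of 52.4%.

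Signs of the libraries' makeup bear on every sort comparison. In 16 of 16 samples the title and the cell type entry disagree on the GFP sign. Libraries are named here by their titles, sort differences are titled GFP+ minus titled GFP-, and every sort direction would be named the other way round under the cell type entry. S100a5 was lower in titled GFP+ than in titled GFP- in 8 of 8 pools, by -1.25 (SE 0.21) in odor and by -1.18 (SE 0.21) in vehicle. The defining markers of mature olfactory neurons, Omp, Cnga2 and Gnal, were above the median negative control in all 16 libraries. So were Gap43 and Gng8 of immature neurons, S100a8 and S100a9 of neutrophils and Cyp2g1 of sustentacular cells, so this level does not set mature neurons apart. Krt5 of horizontal basal cells was above it in 0 libraries. Krt14 of the same cells was above it in 1 titled GFP+ library of each treatment and in 0 titled GFP- libraries. Of 17 macrophage and neutrophil markers 16 were higher in odor libraries titled GFP+ and 17 in vehicle libraries titled GFP+, while 21 mature neuron markers gave 1 higher and 4 lower under each treatment. The 1 higher was Cbr2, which the sustentacular list also holds. Cbr2 was also the only 1 of the 21 above 0 in either treatment. The median of the 21 was -0.26 in odor and -0.17 in vehicle, against -0.14 and -0.13 over all probe sets. Markers of other cells were higher in titled GFP+ too: 11 of 11 microvillar markers (median 3.28 in odor and 3.15 in vehicle), 8 of 8 progenitor markers (2.05 and 1.96) and 9 of 12 sustentacular markers (1.96 and 1.94). So were 6 of 7 lymphocyte markers in odor and 7 in vehicle, 9 and 11 of 16 immature neuron markers (medians 1.55 and 1.61), 12 and 11 of 18 immediate-early genes (2.65 and 2.29) and 2 and 1 of 5 horizontal basal markers. Over all probe sets, 11% were called higher and 9.86% lower in odor, and 10.2% and 7.16% in vehicle. The Y-linked gene Eif2s3y lay between 9.61 and 10.55 in the 8 libraries of pools numbered 1 and 2 and between 2.53 and 3.49 in those of pools numbered 3 and 4, so this split is the same in odor and in vehicle.

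Pcdh10 had the largest odor difference of any probe set in libraries titled GFP+ and the third largest in titled GFP-. In titled GFP+ its signal in pools 1 to 4 was 10.20, 10.98, 9.91 and 10.65 with odor, against 8.42, 8.46, 7.17 and 7.44 with vehicle. In titled GFP- it was 12.14, 12.57, 11.61 and 11.91 with odor, against 9.17, 9.86, 7.99 and 9.26 with vehicle. Every odor library was above every vehicle library of its sort, and even the lowest odor library titled GFP+ was above the highest vehicle library titled GFP-, by 0.05. The group means were 10.44 ± 0.48 (SD, n = 4) with odor and 7.87 ± 0.66 with vehicle in titled GFP+, a difference of 2.56 (SE 0.37) or 5.91-fold. In titled GFP- they were 12.06 ± 0.40 with odor and 9.07 ± 0.78 with vehicle, a difference of 2.98 (SE 0.37) or 7.91-fold. The smallest step between any odor and any vehicle library was 2.74-fold in titled GFP+ and 3.36-fold in titled GFP-. Because the gene was chosen for this difference, these values are a description and carry no test. Vehicle signals were also well above the array background, by at least 1.74 over the median negative control in titled GFP+ and 2.49 in titled GFP-.

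Camk2n1, the CaMKII inhibitor gene, had nearly the same signal in both vehicle groups and a higher one in both odor groups. In titled GFP+ it was 8.29, 8.94, 8.85 and 8.47 in odor pools 1 to 4, against 7.27, 7.57, 7.45 and 7.60 in vehicle pools. In titled GFP- it was 9.30, 9.34, 8.71 and 9.08 with odor, against 7.66, 7.54, 7.40 and 7.24 with vehicle. The odor and vehicle ranges were apart by 0.69 in titled GFP+ and by 1.05 in titled GFP-. Means were 8.64 ± 0.31 (SD, n = 4) with odor and 7.47 ± 0.15 with vehicle in titled GFP+, a difference of 1.17 (SE 0.17) or 2.25-fold. They were 9.11 ± 0.29 with odor and 7.46 ± 0.18 with vehicle in titled GFP-, a difference of 1.64 (SE 0.17) or 3.12-fold. The order of the 4 groups has only 1 clear step, between odor and vehicle, since the 2 odor groups overlapped each other and so did the 2 vehicle groups.

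Sema7a, the membrane semaphorin gene, had the smallest odor difference of the 3 genes and a clear sort difference. In titled GFP+ it was 13.77, 13.94, 13.69 and 13.85 in odor pools 1 to 4, against 13.28, 13.25, 13.12 and 12.85 in vehicle pools. In titled GFP- it was 14.87, 14.78, 14.44 and 14.46 with odor, against 13.81, 13.92, 13.49 and 13.63 with vehicle. The ranges did not overlap between treatments in either sort, with gaps of 0.41 in titled GFP+ and 0.52 in titled GFP-. Means were 13.81 ± 0.11 (SD, n = 4) with odor and 13.13 ± 0.20 with vehicle in titled GFP+, a difference of 0.69 (SE 0.14) or 1.61-fold. They were 14.64 ± 0.22 with odor and 13.71 ± 0.19 with vehicle in titled GFP-, a difference of 0.93 (SE 0.14) or 1.90-fold. In the order of levels, odor titled GFP- was highest and vehicle titled GFP+ lowest, each without overlap with its neighbour, while odor titled GFP+ and vehicle titled GFP- overlapped and their means were 0.10 apart.

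**Figure D1:**
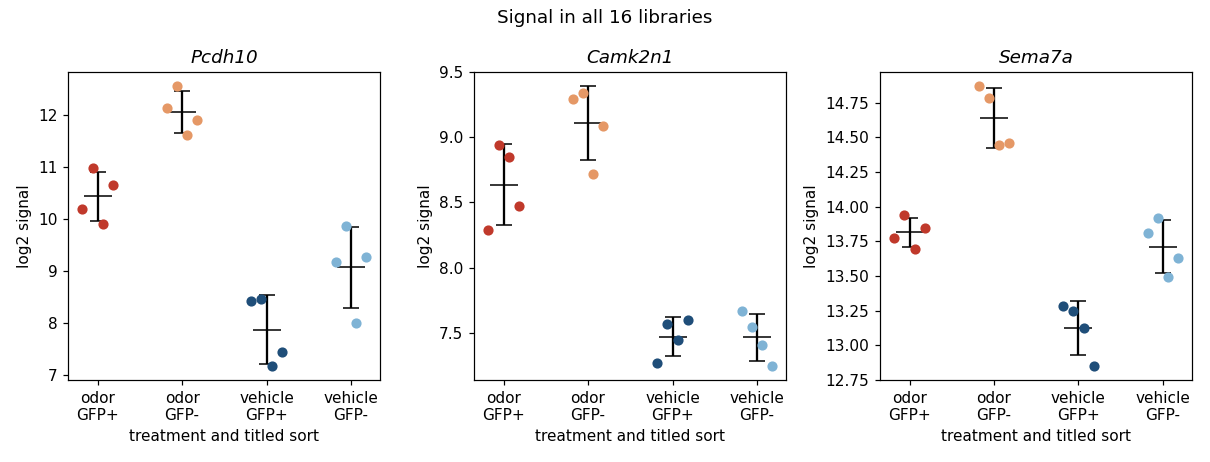
Log2 signal of the 3 genes in all 16 libraries, by treatment and titled sort, on a separate scale for each gene. Points are libraries in the order of pools 1 to 4, the wide bars are means and the error bars SD (n = 4), and within each sort every odor point lies above every vehicle point.

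Averaged over the 2 libraries of each pool, so that mice are compared only 1 time, the odor difference was 2.77 (SE 0.31) for Pcdh10, 1.41 (SE 0.11) for Camk2n1 and 0.81 (SE 0.12) for Sema7a, with 4 odor and 4 vehicle pools. Odor pool means of Camk2n1 ran from 8.78 to 9.14, against 7.42 to 7.55 in vehicle pools. Odor signals above all vehicle signals were found in 1.27% of the 22206 tested probe sets in titled GFP+, in 1.09% in titled GFP- and in 0.0315% in both, while 0.0585% had odor signals below all vehicle signals in both. These shares stand beside the choice of the genes and say nothing further about them. By limma with Benjamini-Hochberg adjustment over all probe sets, 0.00901% were called between odor and vehicle in titled GFP+, 0.018% in titled GFP- and 0.00901% by pool mean. In all 3 genes the odor difference was larger in titled GFP- than in titled GFP+, and the difference between the odor differences, titled GFP+ minus titled GFP-, was -0.42 (SE 0.53) for Pcdh10, -0.48 (SE 0.24) for Camk2n1 and -0.24 (SE 0.20) for Sema7a. These contrasts are built from the odor differences used in the choice and were not tested, and 0.0045% of all probe sets were called for the same contrast.

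The odor differences are given here separately for the pools with and without the Y-linked signal. Their sign was fixed by the absence of overlap, so only their sizes are of use. In pools numbered 1 and 2 the odor difference by pool mean was 2.49 (SE 0.25) for Pcdh10, 1.46 (SE 0.18) for Camk2n1 and 0.78 (SE 0.16) for Sema7a. In pools numbered 3 and 4 it was 3.05 (SE 0.29), 1.35 (SE 0.15) and 0.84 (SE 0.15) in the same order of genes. Each of these rests on 2 pools per treatment.

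**Figure D2:**
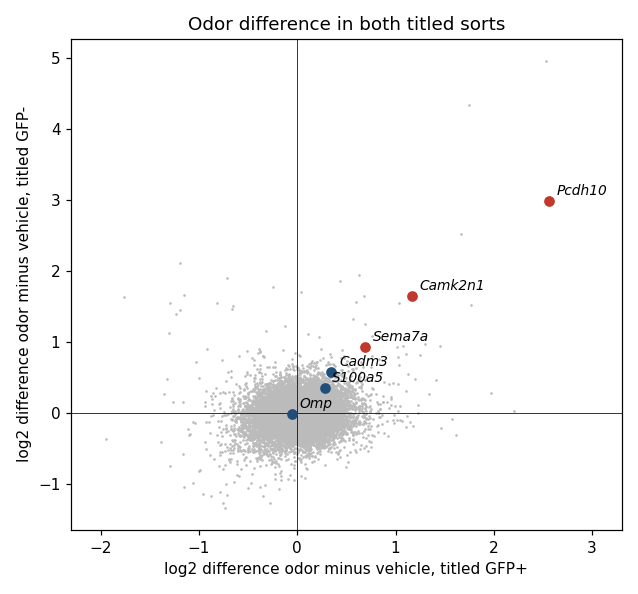
Odor minus vehicle log2 difference in libraries titled GFP+ (horizontal) and titled GFP- (vertical) for every tested probe set (grey). Red points are the 3 genes, at 2.56 and 2.98 for Pcdh10, 1.17 and 1.64 for Camk2n1 and 0.69 and 0.93 for Sema7a, and blue points are Cadm3, S100a5 and Omp.

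None of 208 genes on the 17 lists of related genes and cell markers was called by limma between odor and vehicle. At an unadjusted p below 0.05, 16 of the 208 (7.69%) passed in titled GFP+ and 6 (2.88%) in titled GFP-, against 4.83% and 3.3% of all probe sets. The mean level of the mature neuron markers ran from 15.41 to 15.65 with odor, against 15.54 to 15.67 with vehicle in titled GFP+, and from 15.74 to 15.86 with odor, against 15.71 to 15.84 with vehicle in titled GFP-. Omp, the classical marker of mature olfactory neurons, differed by -0.05 (SE 0.11) in titled GFP+ and by -0.02 (SE 0.11) in titled GFP-. The 17 macrophage and neutrophil markers had mean levels of 11.79 to 13.33 with odor, against 11.95 to 12.58 with vehicle in titled GFP+, and of 5.72 to 6.85 with odor, against 5.56 to 6.54 with vehicle in titled GFP-. Of 12 sustentacular markers, genes of the supporting cells of the epithelium, 12 were above 0 in each sort, with medians of 0.39 in titled GFP+ and 0.23 in titled GFP- and 0 called. Of the macrophage and neutrophil markers 16 of 17 were above 0 in titled GFP+ and 14 in titled GFP-. The mean levels of the sustentacular markers were 9.10 to 10.62 with odor, against 8.87 to 9.60 with vehicle in titled GFP+, and 7.65 to 8.03 with odor, against 7.30 to 7.69 with vehicle in titled GFP-. The part of these cells in the odor differences was not tested. In bulk RNA, more cells that express a gene and more of its RNA per cell cannot be told apart.

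The sort difference is another contrast than the one used in choosing the genes and was tested with limma. It rests on the same libraries, however. The odor difference was larger in titled GFP- for all 3 genes, so their sort difference in odor is not independent of the choice. Pcdh10 was lower in titled GFP+ than in titled GFP- in 4 of 4 odor pools and 4 of 4 vehicle pools. In odor the difference was -1.62 (SE 0.37, 95% interval -2.41 to -0.83, adjusted p = 0.00444 by limma, n = 4), which makes the titled GFP+ signal 0.326 of that in titled GFP-. In vehicle it was -1.20 (SE 0.37, interval -1.99 to -0.41, adjusted p = 0.0344 by limma), with pool differences from -1.82 to -0.75. The vehicle call was lost when vehicle titled GFP- replicate 1, 2 or 4 or vehicle titled GFP+ replicate 3 or 4 was left out, with differences of -1.17 to -0.93 and adjusted p = 0.0758 to 0.117. With the pool as a block, which compares the 2 libraries of the same mice, it was -1.20 (SE 0.18, adjusted p = 0.00103 by limma).

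Sema7a was likewise lower in titled GFP+ in 8 of 8 pools. In odor the difference was -0.83 (SE 0.14, interval -1.13 to -0.52, adjusted p = 0.00034 by limma, n = 4), with pool differences from -1.10 to -0.62. In vehicle it was -0.59 (SE 0.14, interval -0.89 to -0.29, adjusted p = 0.00732 by limma), with pool differences from -0.78 to -0.37. Lower calls made up 9.86% of all probe sets in odor and 7.16% in vehicle, and higher calls 11% and 10.2%. Array medians also differed between sorts, at 6.79 to 6.90 in titled GFP+ and 6.42 to 6.52 in titled GFP-, and centring arrays on mature neuron markers moved the vehicle differences to -1.01 for Pcdh10 (adjusted p = 0.0634) and -0.40 for Sema7a (adjusted p = 0.0605).

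Camk2n1 did not pass the sort test in either treatment. In odor it was lower in titled GFP+ in 3 of 4 pools, with differences of -1.01, -0.40, 0.13 and -0.61 in pools 1 to 4, a mean of -0.47 (SE 0.17, interval -0.83 to -0.11) and an adjusted p of 0.0611 by limma. In vehicle the pools gave -0.40, 0.02, 0.04 and 0.35, a mean of 0.01 (SE 0.17, interval -0.36 to 0.37, adjusted p = 0.987 by limma). The vehicle interval leaves room for a difference of about that size in either direction. The odor difference passed under median centring at -0.84 (adjusted p = 0.0011), under quantile normalization at -0.53 (adjusted p = 0.0334), with dim probe sets left out at -0.47 (adjusted p = 0.0466), and without odor titled GFP+ replicate 2 or 3 or odor titled GFP- replicate 3, at -0.60 to -0.54. The sign in vehicle turned to -0.37 under median centring and -0.28 under quantile normalization, so no direction is given for it. Macrophage and neutrophil markers were higher in titled GFP+ by a median of 6.88 in odor and 6.92 in vehicle, in the same libraries in which Pcdh10 and Sema7a were lower, as were the markers of the other cells given above, and the part of all these cells in the sort differences was not tested.

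**Figure D3:**
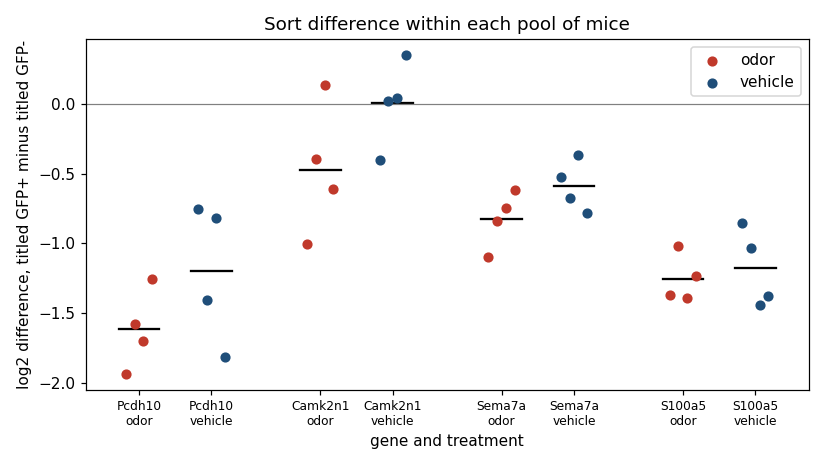
Log2 difference titled GFP+ minus titled GFP- within each of the 8 pools, for the 3 genes and S100a5, with odor (red) left of vehicle (blue). Points are pools 1 to 4 and bars their means, and all points of Pcdh10, Sema7a and S100a5 are below 0, whereas those of Camk2n1 lie on both sides of it.

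The 3 genes followed each other across libraries to different degrees. Over the 16 libraries, Pearson's r of log2 signal was 0.95 between Pcdh10 and Sema7a, 0.89 between Pcdh10 and Camk2n1 and 0.81 between Camk2n1 and Sema7a, values that the shared odor difference largely sets. After the group means were taken out, r was 0.78 for Pcdh10 and Sema7a, 0.24 for Pcdh10 and Camk2n1 and 0.37 for Camk2n1 and Sema7a. Pool 3 had the lowest odor signal of both Pcdh10 and Sema7a in each sort, and pool 2 the highest odor signal of both in titled GFP+. With S100a5, r after taking out group means was 0.85 for Pcdh10, 0.71 for Sema7a and 0.25 for Camk2n1. With Omp, r was 0.24 for Pcdh10, 0.18 for Sema7a and 0.73 for Camk2n1. These are descriptions over 16 libraries that share pools and arrays. Taking out group means leaves the split of pools numbered 1 and 2 from pools numbered 3 and 4. In vehicle, pool means 1 to 4 were 16.08, 16.07, 15.42 and 15.64 for S100a5 and 8.80, 9.16, 7.58 and 8.35 for Pcdh10. For Sema7a they were 13.55, 13.58, 13.31 and 13.24. With odor the split held for S100a5 and Sema7a but not for Pcdh10 (11.17 in pool 1, 11.28 in pool 4). The part of this split in the r values was not tested.

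**Figure D4:**
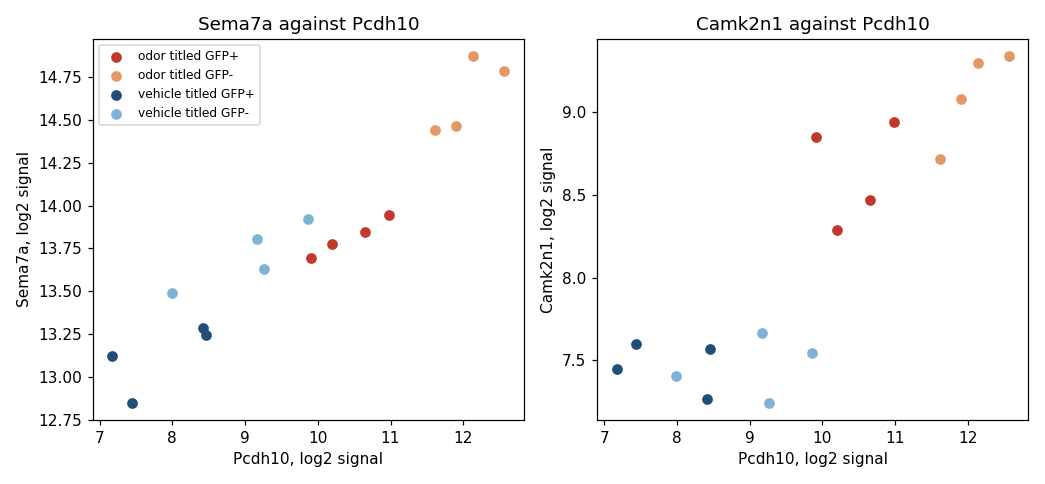
Log2 signal of Sema7a (left) and Camk2n1 (right) against that of Pcdh10 in the 16 libraries, coloured by group. Sema7a follows Pcdh10 within groups as well as between them (r = 0.78 with group means taken out), whereas Camk2n1 sets odor libraries apart from vehicle libraries and has the lower r within groups (r = 0.24).

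The counts of calls with odor in the related lists that follow are at the background, since 0.00901% of all probe sets were called in titled GFP+ and 0.018% in titled GFP-, and they show nothing particular to these lists. Between sorts, 9.86% of all probe sets were called lower and 11% higher in odor, and 7.16% and 10.2% in vehicle. In a list of 8 or 9 genes, 1 sort call in a direction is near these shares. Of 9 other delta protocadherins 0 were called between odor and vehicle by limma in either sort, and at an unadjusted p below 0.05 the count was 0 in titled GFP+ and 1 lower in titled GFP-. Their median odor difference was -0.08 in titled GFP+ and -0.14 in titled GFP-, against -0.01 and 0.00 over all probe sets, and the most distant was Pcdh1 at -0.45 (SE 0.21) and -0.46 (SE 0.21). Between sorts, 3 of the 9 were lower in titled GFP+ in each treatment and 0 higher, with 2 to 6 lower and 0 to 2 higher under the other scalings. Pcdh8 was lower by -1.59 (SE 0.27) in odor and -1.29 (SE 0.27) in vehicle, Pcdh7 by -1.24 (SE 0.13) and -1.43 (SE 0.13), and Pcdh17 by -0.65 (SE 0.20) and -1.03 (SE 0.20), all with adjusted p of 0.0275 or less. Among 8 measured genes of the WAVE complex, to which Pcdh10 binds, 0 were called with odor, and Wasf1, a core subunit in neurons, was lower in titled GFP+ by -0.75 (SE 0.15) in odor and -0.69 (SE 0.15) in vehicle. No other WAVE gene was called between sorts on the deposited values, whereas median centring called 3 lower in odor and 4 in vehicle.

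Camk2n1 acts on CaMKII, and its kinases and calcium sensors are given next. Of 24 measured genes of CaMKII, its kin and calmodulin signalling, 0 were called in either sort, and 1 passed the unadjusted threshold, upward, in each, near the 4.83% of all probe sets in titled GFP+ and 3.3% in titled GFP-. Rcan2, a calcineurin regulator, differed by 0.43 (SE 0.19, adjusted p = 0.968) in titled GFP+, and Camk4, a nuclear calcium-calmodulin kinase, by 0.55 (SE 0.19, adjusted p = 1.00) in titled GFP-. Between sorts, 5 were higher and 4 lower in titled GFP+ in odor, and 5 higher and 3 lower in vehicle. Camk2b, the beta subunit of CaMKII, was higher by 1.25 (SE 0.23) in odor and 1.16 (SE 0.23) in vehicle. Pcp4l1, a relative of the calmodulin regulator Pcp4, was lower by -1.90 (SE 0.30) and -1.62 (SE 0.30). Median centring made 15 of the 24 lower in odor and 14 in vehicle, and centring on mature neuron markers 2 in each, so these counts follow the scaling.

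Of 4 measured Sema7a receptor and signal genes 0 were called between odor and vehicle. Plxnc1, the plexin that binds Sema7a, differed by 0.42 (SE 0.20, adjusted p = 0.968) in titled GFP+, and Itgb1, the beta-1 integrin, by -0.40 (SE 0.17, adjusted p = 1.00) in titled GFP-. Both receptors ran opposite to Sema7a between sorts in odor: Itgb1 was higher in titled GFP+ by 0.95 (SE 0.17) and Plxnc1 by 0.93 (SE 0.20), with adjusted p of 0.0005 and 0.00233. In vehicle Itgb1 was higher by 0.61 (SE 0.17, adjusted p = 0.0184 by limma), and Plxnc1, with means of 9.06 in titled GFP+ and 8.48 in titled GFP-, was not called. The direction was not particular to the receptors, since all 4 measured genes were above 0 in both treatments. Under median centring 2 of the 4 measured receptor and signal genes were still higher in odor and 0 in vehicle. Macrophage and neutrophil markers were higher in the same libraries, and their part in the receptor differences was not tested. Of 18 other semaphorins 0 were called with odor, with 2 higher and 1 lower at an unadjusted p below 0.05 in titled GFP+ and 0 in titled GFP-. Between sorts Sema6c, Sema3e and Sema6d were lower in titled GFP+ in both treatments, with Sema6c at -1.07 (SE 0.19) in odor and -1.17 (SE 0.19) in vehicle. Sema3a was higher, by 0.76 (SE 0.22) in odor and 0.86 (SE 0.22) in vehicle. In all, 1 was called higher and 3 lower in odor, and 2 higher and 3 lower in vehicle. Median centring gave 0 higher in each, with 8 lower in odor and 9 in vehicle. Of 9 plexins and neuropilins 0 were called with odor, and 1 was higher and 2 lower between sorts in each treatment, against 0 higher and 7 lower under median centring.

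Of 20 axon sorting and adhesion genes 0 were called with odor, again the background share, with 2 lower at an unadjusted p below 0.05 in titled GFP+ and 0 in titled GFP-. Kirrel2, an adhesion molecule of the same sorting process, differed by 0.51 (SE 0.56, adjusted p = 1.00) in titled GFP-, with a standard error above those of the 3 genes. Robo1, a receptor for Slit guidance cues, differed by -0.78 (SE 0.21, adjusted p = 0.968) in titled GFP+. Of 9 activity-dependent genes 7 were above 0 in each sort, with medians of 0.26 in titled GFP+ and 0.27 in titled GFP-, and 0 were called or passed the unadjusted threshold. S100a5 itself differed by 0.28 (SE 0.21, adjusted p = 0.968) in titled GFP+ and 0.35 (SE 0.21, adjusted p = 1.00) in titled GFP-. Between sorts 5 of the 9 were lower in titled GFP+ in odor, 4 in vehicle and 0 higher, with 4 to 7 lower and 0 higher under the other scalings.

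**Figure D5:**
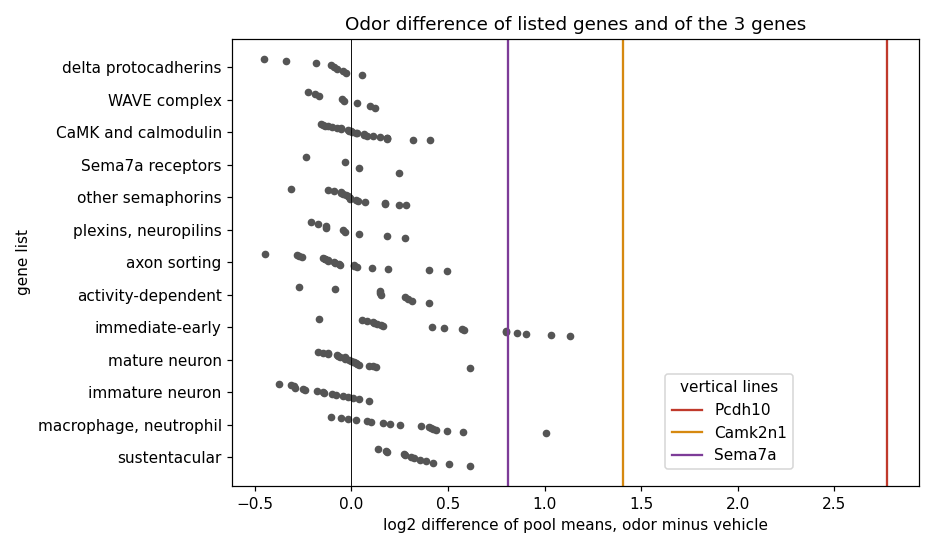
Log2 difference of pool means, odor minus vehicle, for the measured genes of 13 lists (grey points) and for the 3 genes (vertical lines at 0.81 for Sema7a, 1.41 for Camk2n1 and 2.77 for Pcdh10). The related-gene lists, from the top to axon sorting, lie between -0.45 and 0.50, to the left of all 3 lines, whose place follows from the choice of the genes. Lists further down reach past the Sema7a line, with Nr4a3 at 1.13, Fosb at 1.03 and Cd14 at 1.01.

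Among 10572 genes above the median negative control in all libraries, the closest patterns over the 16 libraries were, for each of the 3 genes, first another of the 3. This follows in large part from the choice, since all 3 were taken for their odor step in these libraries. With each sort's mean taken out, the nearest gene outside them was Cadm3, an adhesion molecule of the immunoglobulin family at neuronal contacts, for each of the 3, with r of 0.87 for Pcdh10, 0.86 for Camk2n1 and 0.89 for Sema7a. Cadm3 averaged 10.62 ± 0.26 (SD, n = 4) with odor and 10.27 ± 0.20 with vehicle in titled GFP+, and 10.93 ± 0.11 with odor and 10.35 ± 0.15 with vehicle in titled GFP-. Its odor difference was 0.35 (SE 0.14) in titled GFP+ and 0.58 (SE 0.14) in titled GFP-, and it was not among the probe sets called. Cadm3 was picked by its likeness to genes chosen for odor in these same libraries. Its odor difference is therefore a description and carries no test. On the signals as they stand, Sema7a was also close to Rsbn1l (r = 0.86) and to the odorant receptor gene Olfr1229 (r = 0.86). The genes were not neighbours in the genome, lying on chromosomes 3, 4 and 9. Of the 12 measured coding genes nearest to them, 2 on each side, 0 were called with odor, and their pool mean differences lay between -0.19 and 0.11. This count is at the background, since 0.00901% of all probe sets were called in titled GFP+ and 0.018% in titled GFP-. Pabpc4l, Pcdh18, Vwa5b1 and Cyp11a1 were above the median negative control in 0 libraries, Fam43b in 1, Ccdc33 in 5 and Ubxn10 in 11. Where a neighbour was not above this level, a fall with odor could hardly show, whereas a rise could.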

How the data were processed

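The authors deposited log2 signals, 1 per probe set and array. The submitters' processing notes name Affymetrix Expression Console. Its background correction and normalization settings are not stated there or in the labels. Of 28846 probe sets, 6640 controls (5222 negative) were left out, which left 22206 tested. The platform annotation gave 1 symbol to 19572. Groups come from the sample titles. Replicates are separate pools of 3 mice.

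limma (version 3.58.1, R 4.3.3) was fitted to the 4 group means of all 16 arrays (12 residual degrees of freedom), and for odor by pool mean to the 8 averages of a pool's libraries. Adjusted p-values are Benjamini-Hochberg values over all tested probe sets, with a threshold of 0.05. On simulated data with 200 changed probe sets of 22206, a difference of 1 was recovered in 63% in titled GFP+ and 69% in titled GFP-, and one of 2 in 99% and 96%, for odor against vehicle. The simulated noise was independent between libraries, and 200 changes ease the adjusted threshold more than the 2 and 4 odor calls made here. These shares are therefore not the power in the real data, where Nr4a3 at 1.98 in titled GFP+ and Cd44 at 1.86 in titled GFP- were not called. The number of arrays limits the precision. The genes, lists and tests were chosen with earlier results of these data known. The rule for named genes took the 3 genes, S100a5, Omp, the listed genes with the largest differences and the 3 closest patterns per gene. Eif2s3y, Cnga2, Gnal, Gap43, Gng8, S100a8, S100a9, Cyp2g1, Krt5 and Krt14 are label checks. Lists were delta protocadherins, WAVE complex, CaMKII and calmodulin, Sema7a receptors, other semaphorins, plexins and neuropilins, axon sorting, activity-dependent and immediate-early genes, and markers of mature and immature neurons, macrophages and neutrophils, lymphocytes, sustentacular, microvillar, horizontal basal and dividing progenitor cells. Listed genes with no named probe set were not analysed here. The libraries of a pool come from the same mice, and their deviations from group means correlated at 0.16 to 0.40 in 8 of 8 pools. Alternatives were quantile normalization, centring on medians or mature neuron markers, eBayes with trend, a filter on dim probe sets, blocks, and leaving out each library or pool. The pools numbered 1 and 2, and 3 and 4, were also fitted apart, an alternative chosen after seeing the data.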

Additional observations from a re-analysis of the deposited data

How the results depend on the processing

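Over all settings run, 192 of 192 odor differences of the 3 genes stayed within 1 within-group SD of the reported value and 0 fell below 0. Leaving out libraries or pools could not turn the sign, since the odor and vehicle ranges of these genes did not overlap, so only the sizes are of use there. For the sort difference in vehicle, centring on mature neuron markers gave -1.01 for Pcdh10 and -0.40 for Sema7a, both past the threshold no longer, and Camk2n1 turned to -0.28 under quantile normalization and -0.37 under median centring. For the sort difference in odor, Camk2n1 passed at -0.53 under quantile normalization, -0.84 under median centring and -0.47 with dim probe sets left out. In pools numbered 1 and 2 alone, chosen after seeing the data, the vehicle differences were -1.08 (Pcdh10), -0.60 (Sema7a) and -0.19 (Camk2n1), none past the threshold. In pools numbered 3 and 4 alone, Pcdh10 gave -1.32 in vehicle and -1.48 in odor and Sema7a -0.57 and -0.68, none past the threshold with fewer samples. Leaving out a library gave -1.56 to -0.93 for Pcdh10 in vehicle, -0.068 to 0.073 for Camk2n1 in vehicle and -0.60 to -0.36 for Camk2n1 in odor. The cause was not tested for these changes.

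Counts over all probe sets called by limma moved as follows. The sort difference gave 15630 calls in vehicle (1762 higher, 13868 lower) and 15554 in odor (1875 higher, 13679 lower) under median centring (11.3% and 12.1% higher), which shifts the median of all differences from -0.13 to -0.50 in vehicle and from -0.14 to -0.50 in odor, against 3851 (2260 and 1591) and 4638 (2449 and 2189) as deposited. The share of higher calls, 58.7% in vehicle and 52.8% in odor, was 42.1% and 41.4% after quantile normalization and 81.2% and 82.5% when centred on mature neuron markers. Pools 1 and 2 alone gave 2519 and 3087 sort calls, and pools 3 and 4 alone 2083 and 1990. Odor against vehicle in titled GFP+ gave 2 calls as deposited, 0 under median centring and with trend, and 0 to 6 with a library left out. Odor in titled GFP- gave 4 calls, and 3 to 5 with a library left out. By pool mean 2 were called, 1 with dim probe sets left out and 1 to 2 with a pool left out. In either set of 2 pools 0 were called in each odor comparison. The interaction gave 1 call, 1 to 2 with a library left out and 0 in pools 3 and 4 alone. With the pool as a replicate block the sort calls were 4675 in vehicle and 5787 in odor and the interaction calls 0, and no sort call of the 3 genes changed. With the replicate number shared by odor and vehicle as a block, 4 were called in titled GFP+. The labels tie equal numbers to no shared day or litter. Their deviations correlated at 0.07 to 0.41, over 0.1 in 7 of 8 pairs, which fell short of the rule that all pairs pass, so whether they pair the pools is unsettled. Eif2s3y splits the numbers alike in both treatments, and the block took the SE of the Pcdh10 pool mean difference to 0.144, against 0.313 without it.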

Other observations

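Immediate-early genes, transcribed within minutes of stimulation in many cell types, were above 0 with odor in 17 of 18 in libraries titled GFP+ and 16 of 18 in titled GFP-, with medians of 0.67 and 0.16. None was called by limma, and 6 passed an unadjusted p below 0.05 in titled GFP+ and 0 in titled GFP-. Over all probe sets, 4.83% passed in titled GFP+ and 3.3% in titled GFP-, and the median differences were -0.01 and -0.001. The largest difference was that of Nr4a3, an orphan nuclear receptor, at 1.98 (SE 0.40, adjusted p = 0.416 by limma) in titled GFP+. Their mean level ran from 10.12 to 11.14 with odor, against 9.39 to 10.35 with vehicle in titled GFP+, and from 7.67 to 7.99 with odor, against 7.35 to 7.87 with vehicle in titled GFP-.

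Immature neuron markers were above 0 with odor in 1 of 16 in titled GFP+ and 6 of 16 in titled GFP-, with medians of -0.26 and -0.04, and 0 were called. Of the lists not described so far, lymphocyte markers had median odor differences of -0.06 in titled GFP+ and -0.06 in titled GFP-, microvillar markers 0.30 and 0.03, horizontal basal markers 0.03 and -0.04, and progenitor markers 0.10 and 0.13, each with 0 called. Cd44 of the horizontal basal list had the largest odor difference of the 208 listed genes in titled GFP-, at 1.86 (SE 0.41, adjusted p = 0.799 by limma). In titled GFP+ it differed by 0.44 (SE 0.41), and by pool mean by 1.15 (SE 0.21). It was the only 1 of the 5 horizontal basal markers above 0 in titled GFP-. Of 7 probe sets whose odor libraries lay above all vehicle libraries in both sorts, 3 are Pcdh10, Camk2n1 and Sema7a. The other 4 are Ccdc24, Stra6, Tyk2 and Col14a1, named after their values were seen, with pool mean differences between 0.29 and 0.51.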
